A study of Homo sapiens with 2 samples.

Results

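PLEC and EPPK1 are neighbouring genes on the minus strand of human chromosome 8 that encode plectin and epiplakin, very large proteins built around plakin repeats. In the deposited list of places bound by ADAR1 (hg19), 15 of 23782 clusters belonged to these genes, 12 to PLEC and 3 to EPPK1. A cluster, a stretch of RNA covered by crosslinked reads, was counted when its midpoint fell inside the gene interval and it lay on the gene's strand. The intervals ran from 144989300 to 145051000 for PLEC (ENSG00000178209.15) and from 144939400 to 144952700 for EPPK1 (ENSG00000261150.2). The genes were picked on the deposited list itself, because clusters are dense at this place, so the number, class and density of their clusters are given as a description with no test.

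The data come from CLIP-seq, in which ultraviolet light links a protein to the RNA it touches before the protein is pulled down with an antibody. The cells were U87MG, an established human glioblastoma (astrocytoma) line. There were 2 libraries, labelled AB1 and AB2 after the antibody, with 1 library per label; the series description says that the antibodies differed, but both libraries carry the same catalogue entry of a mouse monoclonal antibody against ADAR1, so what the labels distinguish is in doubt. The authors deposited 1 list of positions for both libraries, with no tag number, score or library column, so the depth behind each cluster is unknown, no value has a replicate, and AB1 cannot be set against AB2. Neither library was an input or control antibody sample. RNA levels of PLEC and EPPK1 in these cells were not analysed here.

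ADAR1 is an enzyme that binds double-stranded RNA and turns adenosine into inosine. In human cells most of its known targets are pairs of inverted Alu repeats in introns and at the ends of messenger RNAs, which fold back on each other. Plectin is a linker of the cytoskeleton: it has an actin-binding part at its start, a long coiled-coil rod, and a row of plakin repeats at its end that holds on to intermediate filaments such as vimentin. Epiplakin consists almost entirely of plakin repeats and is known from epithelial cells as a partner of keratin filaments. Plectin is transcribed from many alternative first exons, all joined to the same body of the gene, which ends in a very long last exon.

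All 15 clusters carried the authors' non-Alu label and 0 carried the Alu label. No interval is given for this share, because clusters of a gene are not independent and the genes were picked on this list. Over the whole list 15.1% of clusters were non-Alu, and on chromosome 8 the share was 17.4% (159 of 914). No cluster of the plus strand fell inside either interval. AHNAK and MAP1A, a giant scaffold protein and a microtubule-associated protein that also have a very long coding exon, had 29 and 12 clusters, all of them non-Alu. They were chosen for comparison because their clusters are known to be dense.

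Along the gene interval, introns included, the PLEC clusters lay toward the 3′ end. Because the gene runs along the minus strand, its 3′ edge is the lowest coordinate of the interval, and all 12 clusters lay between 133 and 18010 bases from it. The remaining 43690 bases up to the 5′ edge, 70.8% of the interval, held no cluster. Counted by midpoint in steps of 5 kb from the 3′ edge, there were 5, 3, 3 and 1 clusters and then 0 in each later step. In GENCODE release 29, which uses GRCh38 and not hg19, the 10 PLEC transcripts longer than 10000 bases begin at 9 positions, 24437 to 61581 bases from the 3′ end. No cluster was listed at those distances, and shorter PLEC transcripts were not looked at. Most of the spliced sequence is also at the 3′ end. Exons 31 and 32 of the longest transcript lie within 10731 bases of it and hold 10624 of 15249 bases. Whether the clusters lie nearer the 3′ end than the exon sequence does was not tested.

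**Figure D1:**
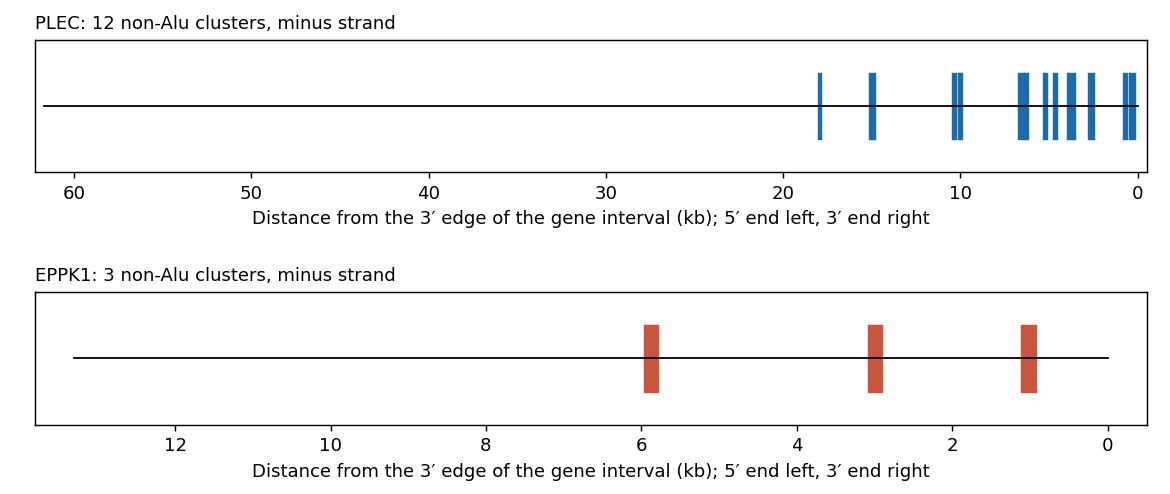
Positions of the 12 PLEC clusters (top) and the 3 EPPK1 clusters (bottom) as coloured boxes drawn to scale, against the distance from the 3′ edge of each gene interval in kb, with the 5′ end on the left. All PLEC clusters lie within 18010 bases of the 3′ edge and all EPPK1 clusters within 5963 bases.

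The first PLEC cluster from the 3′ edge covered 366 bases at chr8:144989433-144989798. The second, of 177 bases at chr8:144989932-144990108, followed after a gap of 133 bases. Both ended within 808 bases of the 3′ edge. The longest PLEC transcript in GENCODE has 1027 bases after its last coding base, and both clusters lay within that distance.

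Next came 6 clusters between 2482 and 6739 bases from the 3′ edge. The longest PLEC cluster was among them, 448 bases at chr8:144992848-144993295, and only 32 of all 3582 non-Alu clusters were longer. The others of this stretch had lengths of 300, 220, 202, 225 and 319 bases in the order in which they lie from the 3′ edge. The last exon of the GENCODE transcript, exon 32, is 7243 bases long and encodes the plakin repeats. It makes up 47.5% of the transcript, and 8 of the 12 clusters ended within that distance. A pair of these clusters nearly touched: 225 bases at chr8:144995493-144995717 and 319 bases at chr8:144995721-144996039 were separated by 3 bases, the narrowest gap in the gene. Over the whole list 10 of 23734 pairs of consecutive clusters on the same strand were as close or closer, and 5 of these were non-Alu pairs. The gap is the narrowest of 11 in a gene picked for dense clusters, so this count is a description only.

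After an empty stretch of 3172 bases, a pair of clusters of 239 and 211 bases lay at chr8:144999212-144999450 and chr8:144999573-144999783, with 122 bases between them. They were 9912 to 10483 bases from the 3′ edge. In the GENCODE transcript exon 31, of 3381 bases, which encodes the coiled-coil rod, occupies the distances from 7351 to 10731 bases. Both long exons together thus span the distances of 10 of the 12 clusters (8 and 2). They also hold 10624 of the 15249 bases of the spliced transcript. The part of their size in the number of clusters there was not tested. These exon lengths are from another genome build and were set beside the hg19 distances without converting any coordinate; the gene is 61588 bases long in GENCODE and the hg19 interval 61701 bases.

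The remaining 2 clusters were isolated. A cluster of 336 bases at chr8:145004119-145004454 followed after the widest gap in PLEC, 4335 bases. The last, at chr8:145007144-145007310, was 2689 bases farther on and the shortest of the gene with 167 bases. Their distances, 14819 to 18010 bases from the 3′ edge, lie upstream of both long exons, where short exons of the 32 in the transcript alternate with introns. Whether they cover exons or introns was not assigned. The nearer edge of the microRNA gene MIR661, on the same strand inside PLEC, is 30044 bases from the 3′ end of PLEC in GENCODE, beyond the last cluster.

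EPPK1 carried fewer clusters, wider apart. The 3 clusters lay at chr8:144940327-144940511, chr8:144942301-144942485 and chr8:144945184-144945363, from 927 to 5963 bases from the 3′ edge. Their lengths were 185, 185 and 180 bases, and the gaps between them 1789 and 2698 bases. The 7337 bases up to the 5′ edge, 55.2% of the interval, held none. With 3 clusters in 13301 bases, EPPK1 had 2.26 clusters per 10 kb of interval, and PLEC, with its long introns, 1.94. The EPPK1 gene is 21141 bases long in GENCODE, so the EPPK1 share and density hold for the interval and not for the annotated gene. Within the stretch from first to last cluster the numbers were 6.71 per 10 kb in PLEC and 5.96 in EPPK1, against 18.5 in AHNAK and 11.7 in MAP1A.

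The PLEC clusters had a median length of 232 bases, with a range of 167 to 448, and the EPPK1 clusters a median of 185 bases. AHNAK and MAP1A clusters had medians of 234 and 213 bases. The median was 191 bases over all non-Alu clusters and 193 bases over all Alu clusters. Clusters of more than 300 bases made up 4 of 12 in PLEC and 0 of 3 in EPPK1, against 10 of 29 in AHNAK, 2 of 12 in MAP1A and 160 of 3582 non-Alu clusters (4.47%). The 4 in PLEC were not neighbours of each other, since shorter clusters lay between them. All EPPK1 lengths fell between the quartiles of the non-Alu lengths, 141 and 222 bases. No test of these differences was made, because the clusters of a gene share its RNA and are not replicates.

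**Figure D2:**
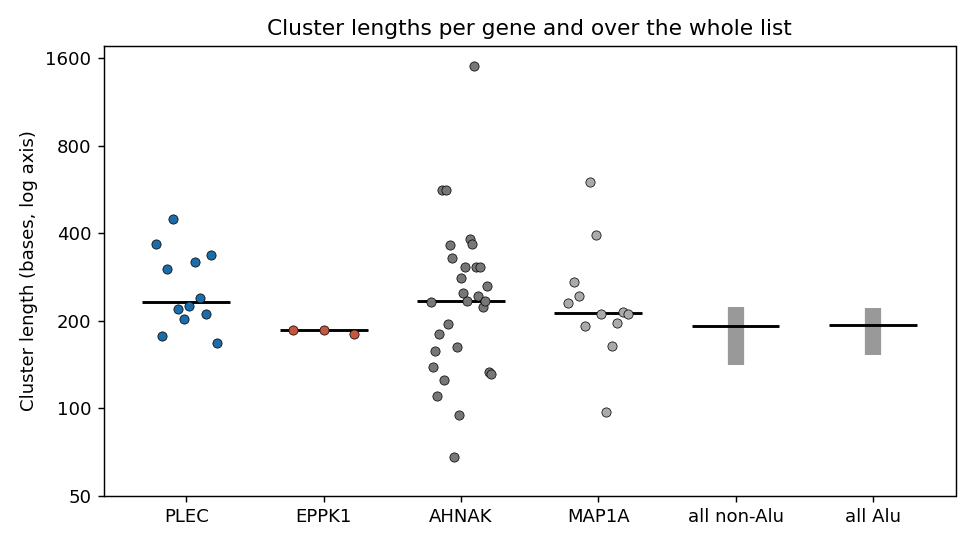
Length in bases (log axis) of each cluster in PLEC, EPPK1, AHNAK and MAP1A as points, with the median as a line, and the median with a bar between the quartiles for all non-Alu and all Alu clusters. The PLEC median of 232 bases is near that of AHNAK (234), while the 3 EPPK1 clusters sit at 180 to 185 bases.

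Gaps within PLEC ranged from 3 to 4335 bases with a median of 766 over 11 gaps, of which 7 were at most 1000 bases. Of the 12 PLEC clusters, 10 had another cluster of their strand at most 1000 bases away (83.3%), as did 0 of the 3 EPPK1 clusters. This contrast depends on the distance allowed: within 2000 bases the shares were 83.3% in PLEC and 66.7% in EPPK1, and within 200 bases the PLEC share was 50%. A neighbour counts for both clusters of a pair, so these shares have no error of their own. All AHNAK and MAP1A clusters had such a neighbour, at median gaps of 118 and 362 bases, against 17.1% of all non-Alu and 4.86% of all Alu clusters. The clusters covered 18.0% of the stretch they span in PLEC (3210 of 17878 bases) and 10.9% in EPPK1 (550 of 5037 bases), against 53.8% in AHNAK and 29.5% in MAP1A.

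**Figure D3:**
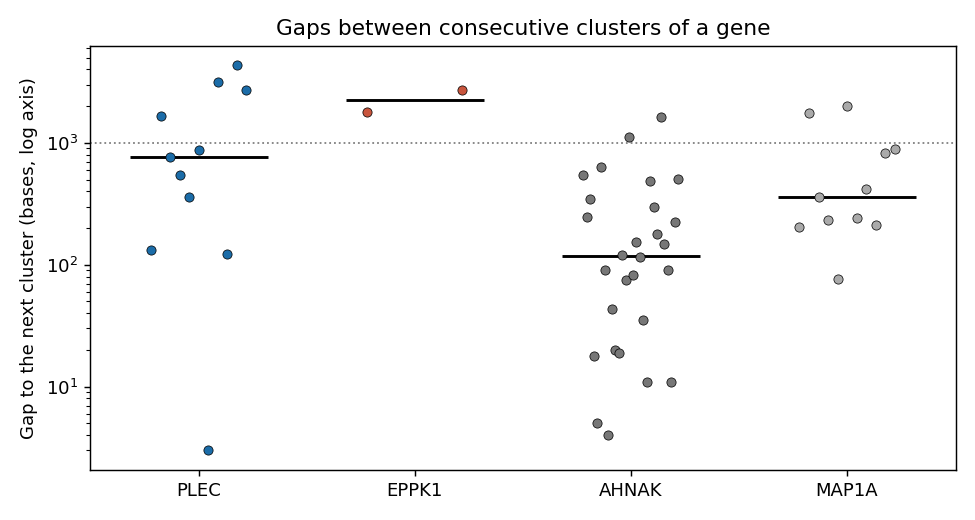
Gaps in bases (log axis) between consecutive clusters, 1 point per gap, with the median as a line and a dotted line at 1000 bases. PLEC spans 3 to 4335 bases, and both EPPK1 gaps, 1789 and 2698 bases, lie above the dotted line.

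When non-Alu clusters of 1 strand were joined into chains wherever the gap was at most 5000 bases, a distance chosen after the data were seen, the 12 PLEC clusters formed a single chain. The widest PLEC gap was 4335 bases, so a limit below that would have split this chain, and no other limit was tried. Of 2951 chains in the list, 2 were larger, AHNAK with 29 clusters and a chain on chromosome 1 with 13. MAP1A equalled PLEC with 12. This rank is a description only, because PLEC was picked for its dense clusters. The EPPK1 clusters also formed a single chain of 3, a size reached or passed by 116 chains. Between the chains of the 2 genes lay 44069 bases. On the side facing the other gene, no minus-strand cluster had its midpoint within 5000 bases of either interval. Whether clusters lie elsewhere in that stretch, or on its plus strand outside the intervals, was not examined.

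Distances outside the genes were taken from the edges of the intervals. The nearest cluster below EPPK1 was an Alu cluster of 129 bases on the minus strand, 55951 bases away. Just beyond the 5′ edge of PLEC, an Alu cluster of 101 bases on the minus strand began 2185 bases away at chr8:145053186-145053286. A non-Alu cluster of 223 bases on the same strand, at chr8:145055738-145055960, began 4737 bases from the edge. Neither was counted with PLEC, which would have 14 clusters with an interval wider by 5000 bases on each side.

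The transcripts of the 2 genes differed in how much of their sequence is repeated within them. Read as words of 50 bases, the longest GENCODE transcript of EPPK1 (16002 bases, of which 15975 are in exon 2) held 50.8% of words that occur more than once within the transcript. PLEC held 0.263%, AHNAK 8.63% and MAP1A 0. Among the longest transcripts of 19669 protein-coding genes, 9 had a higher share than EPPK1, and 591 had any such word. At 30 and 100 bases the EPPK1 share was 53.3 and 46.0%, and the PLEC share 0.986 and 0%. A read of that length from such a place would match several positions of this transcript. Whether the same copies are present in hg19 was not examined, and the sources used here do not give how the authors treated such reads. The part of this in the number and places of the EPPK1 clusters was not tested.

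**Figure D4:**
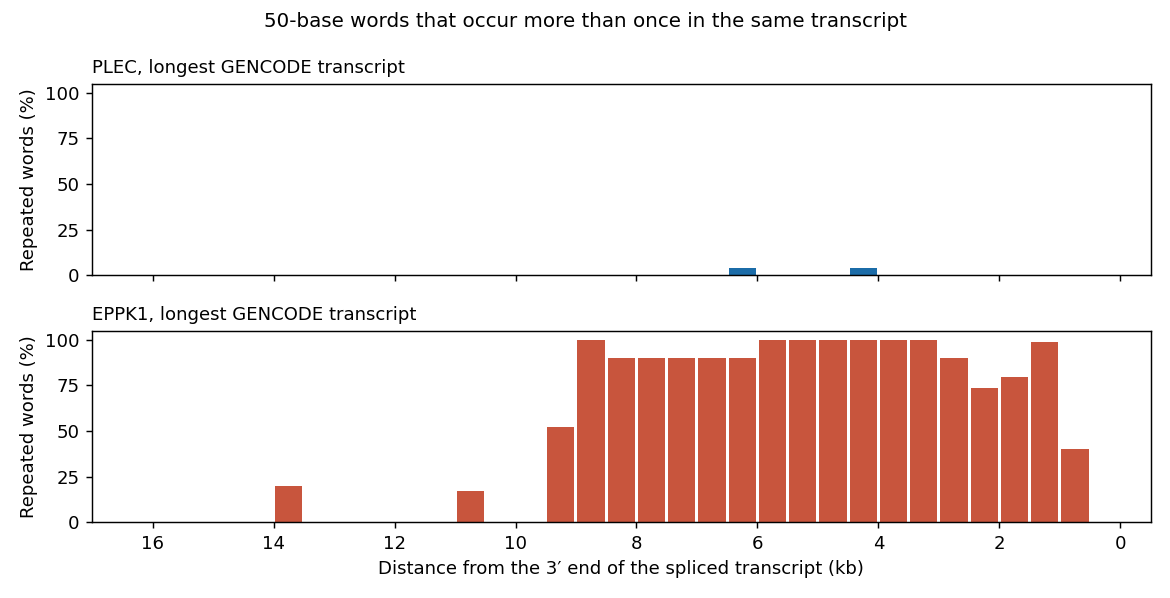
Share in percent of 50-base words that occur more than once in the same transcript, in steps of 500 bases from the 3′ end of the longest GENCODE transcript of PLEC (top) and EPPK1 (bottom). Over the last 9000 bases the share is 0.446% in PLEC and 85.4% in EPPK1.

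The repeated words of EPPK1 lay toward its 3′ end, where the plakin repeats of epiplakin are near copies of each other. They made up 85.4% of words in the last 9000 bases and 6.39% farther upstream, a limit set after the profile was seen. Equal words were most often 1602 bases apart, which is 534 codons, the length of a repeat unit. The cluster starts of EPPK1 were 1974, 2883 and 4857 bases apart; with 3 clusters, nothing about a period can be read from these distances. In PLEC the most frequent distance between equal words was 1977 bases, with only 19 pairs of words. The large exon of EPPK1 in GENCODE is longer than the whole hg19 interval (15975 against 13301 bases), so the EPPK1 clusters could not be placed on this transcript.

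Sequence shared between the genes, or with other genes, was far less than that repeated within EPPK1. Words of 30 bases present in both transcripts numbered 155, which is 1.02% of the distinct words of PLEC and 1.70% of those of EPPK1. Words of 50 bases found in the longest transcript of another protein-coding gene made up 0.592% of PLEC and 1.81% of EPPK1.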

How the data were processed

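ADAR1 CLIP-seq clusters from U87MG cells were taken from the 1 list that the authors deposited for both libraries. Per the submitters' processing notes, cutadapt 1.1, Novoalign 2.08.22 and hg19 were used; the cluster caller, the treatment of reads with several matches and the rule for the Alu class are not given in these sources. The list holds positions and a class; its starts were read as counted from 0 and are printed counting from 1. A gap is the number of bases between a cluster's end and the next start on the same strand.

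The AHNAK and MAP1A intervals were set by hand from their known hg19 positions. GENCODE release 29 (GRCh38) gave exon lengths and transcript sequences only. No sequence is printed. The members, comparison genes and lists were chosen with earlier results of these data known. All clusters of PLEC and EPPK1 were named. The procedures were checked with planted gaps and repeats. Python 3.11.15, numpy 2.4.6, pandas 2.3.3, scipy 1.17.1 and matplotlib 3.10.9 were used. The alternatives were any overlap, both strands, a length filter, merging, a wider interval and other neighbour distances.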

Additional observations from a re-analysis of the deposited data

How the results depend on the processing

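Across the alternatives tried for each value, the number of PLEC clusters ranged from 10 (only clusters of at least the median length) to 14 (interval widened by 5000 bases), and merging within 50 bases, which joined the pair 3 bases apart, gave 11. The median PLEC length ranged from 232 to 269.5 bases, the median gap from 766 to 819 bases and the covered length from 2866 to 3213 bases, and all PLEC clusters were non-Alu under the filter, merging and both strands; the wider interval takes in the Alu cluster beyond its 5′ edge. The length filter left 0 EPPK1 clusters, since all were shorter than the median of the list. With neighbours counted within 200 bases, the share of PLEC clusters with a neighbour was 50%, by construction of the shorter distance. Within 2000 bases the EPPK1 share was 66.7%, against 0% within 1000 bases; with 3 clusters, no criterion of stability is informative for EPPK1. No paired analysis was possible because the list does not separate the 2 libraries, and for the same reason neither could be left out. Without tag numbers, weak clusters and places without a cluster cannot be judged.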
